A study of Arabidopsis thaliana with 11 samples.

Results

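The genes described here are those whose transcripts were more abundant on brassinazole (BRZ) in Arabidopsis seedlings of both genotypes studied, wild-type Col and mutant arf2. They are 101 probe sets of the 22746 on the array that are not controls, and they were chosen by the measured response itself. The log2 mean of the BRZ arrays had to exceed that of the mock arrays by at least 0.8 in Col and in arf2, and within each genotype every BRZ array had to lie above every mock array. This rule gave 107 probe sets, of which 6 were left out by name (GH9B8, XTH16, XTH32, SWEET1, AT5G15180 and AT5G62340). No further probe set was lost to names starting UGT, IAA, TUA, TUB or RALF, or to the plastid. Probe sets with no named gene could not be screened in this way. The rise on BRZ is therefore what defined the members and is given below as a description, without a test.

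The study used whole dark-grown seedlings, harvested when 4 days old, on 11 Affymetrix ATH1 arrays. Col was grown on mock medium (3 arrays) or on 0.5 µM BRZ (3 arrays), and arf2, a mutant in the gene of the auxin response factor ARF2, on mock (3 arrays) or on 0.5 µM BRZ (2 arrays). The arrays of a group were independent biological replicates per the series' design text, and the labels name no arf2 allele, so whether the mutant is a complete loss of function was not analysed here. In whole seedlings, more cells of a type and more RNA per cell cannot be told apart.

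BRZ inhibits the cytochrome P450 enzymes that make brassinosteroids. These steroid hormones are sensed at the cell surface by the receptor kinase BRI1, whose signal inactivates the kinase BIN2 and so lets the transcription factors BZR1 and BES1 accumulate and act in the nucleus, where they repress some genes and activate others. In darkness brassinosteroids promote hypocotyl elongation and hold back leaf development and light-type gene expression, so seedlings grown on BRZ in the dark are short with opened cotyledons. ARF2 is a repressor-type auxin response factor that BIN2 can phosphorylate.

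The supplied annotation names exactly 1 gene for 43 of the 101 members, several genes for 3 and none for 55. The unnamed members may include further known genes. The changes of unnamed members covered a range similar to that of named ones, from 0.82 to 3.12 on the log2 scale in Col and from 0.80 to 3.37 in arf2, against 0.80 to 2.91 and 0.81 to 3.40 for the named. All 101 members passed the filter used for testing, a log2 value above 4 on at least 2 arrays, and 1 of them did so through its BRZ arrays only. Values below are gcRMA intensities as deposited, on a linear scale, and changes are differences of group means of their log2.

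Across the members the median log2 change was 1.13 in Col and 1.15 in arf2. Over all 21886 probe sets tested the median was 0.06 and 0.00. Of the 101 members, 56 had at least a 2-fold higher level on BRZ in both genotypes, and 5 at least a 4-fold higher level.

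The named member with the largest response shared by both genotypes was AT5G22580, a stress-responsive A/B barrel domain protein. It read 210.3, 231 and 321 for Col on mock and 1841, 1736 and 2093 on Col BRZ. On arf2 mock it read 217, 249 and 232, and on arf2 BRZ 2263 and 1756. The mock arrays of both genotypes formed one low group and the BRZ arrays one high group, with a 7.54-fold higher mean on BRZ in Col and an 8.58-fold higher mean in arf2. AT5G01740, a protein of the nuclear transport factor 2 family, read 267, 369.9 and 321 for Col on mock and 1590.4, 1486 and 1825 on Col BRZ. On arf2 mock it was lower, at 147, 174 and 176, while on arf2 BRZ it reached 1877 and 1605. Both genotypes thus had overlapping levels on BRZ from different levels on mock, and the fold was 5.15 in Col and 10.5 in arf2. AT3G45160, a putative membrane lipoprotein, lay low on mock, at 25.8, 26.4 and 20.6 in Col and 22.7, 24.6 and 19.6 in arf2. On BRZ it read 96.0, 47.9 and 89.1 in Col and 81.0 and 83.6 in arf2, so Col BRZ array 2 stood well below the other arrays of that medium.

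**Figure D1:**
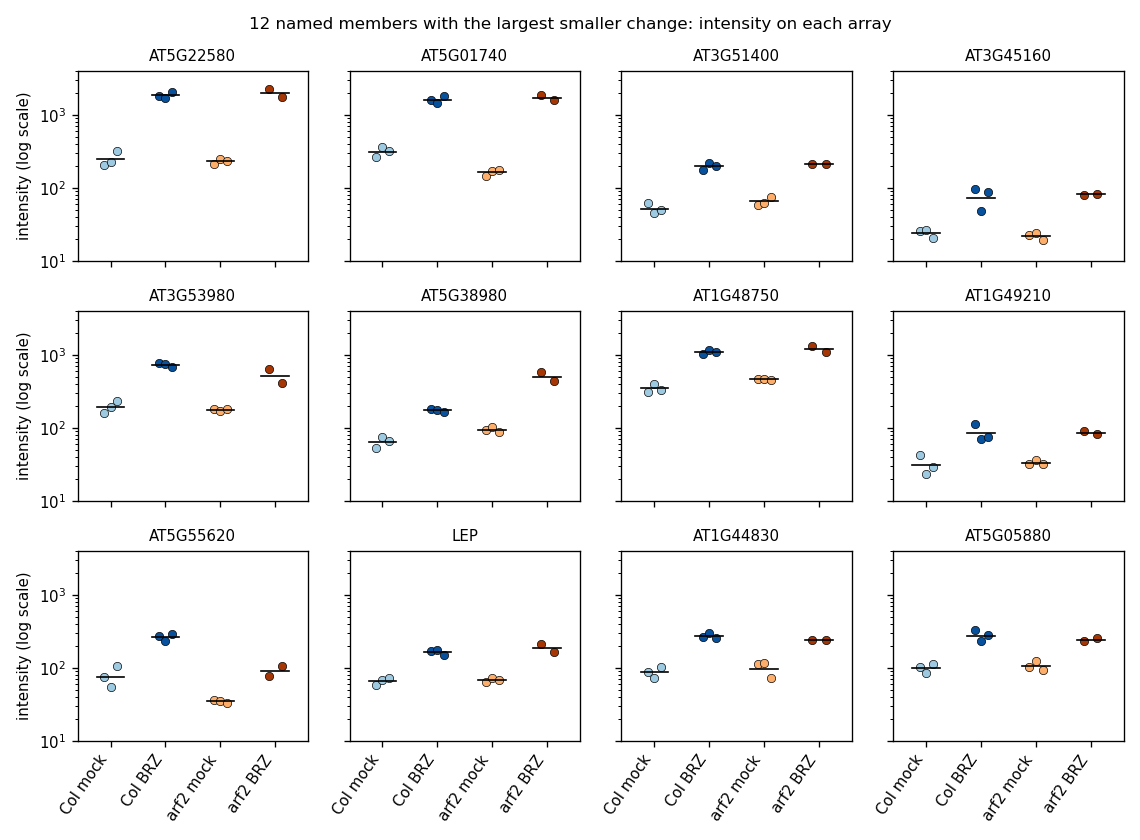
Intensity (log axis) on each array for the 12 named members with the largest value of the smaller of their changes in Col and arf2. Points are arrays, coloured by group (3 Col mock, 3 Col BRZ, 3 arf2 mock, 2 arf2 BRZ), and bars are geometric means. AT5G22580 and LEP have closely matching levels in both genotypes, whereas AT5G55620 is lower and AT5G38980 higher in arf2 on both media.

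Named members of secreted or wall-associated protein families numbered 6. Pectin methylesterase inhibitors limit the enzymes that remove methyl groups from wall pectin, lipid-transfer proteins carry lipids outside the plasma membrane, GDSL lipases cleave ester bonds, and class III peroxidases act in the wall. The log2 changes of these 6 lay between 0.96 and 1.94 in Col and between 0.96 and 1.55 in arf2. The lipid-transfer protein AT3G53980 read 158, 195 and 233 for Col on mock and 775, 749 and 695 on Col BRZ. In arf2 it read 179.7, 169.6 and 183 on mock and 651 and 415 on BRZ, the 2 BRZ arrays being wide apart. AT1G48750, of the same family, was at 312, 404 and 336 for Col on mock, 1043, 1184 and 1107 on Col BRZ, 474, 464 and 449 on arf2 mock, and 1336 and 1113 on arf2 BRZ. The arf2 mock arrays all lay above the Col mock arrays, with no overlap. The pectin methylesterase inhibitor AT1G62770 was at 729, 687 and 784 for Col on mock and 964, 997 and 969 on arf2 mock. On BRZ it read 1542, 1774 and 1860.4 in Col and 2276 and 2007 in arf2. A second inhibitor, AT3G62820, had levels in arf2 that were lower throughout: 83.9, 52.2 and 106 for Col on mock and 159, 180.0 and 153 on Col BRZ, against 38.3, 36.0 and 37.4 on arf2 mock and 60.7 and 86.8 on arf2 BRZ. The GDSL lipase AT1G33811 read 55.3, 40.5 and 68.1 for Col on mock and 122, 127 and 138 on Col BRZ. In arf2 it read 25.6, 26.6 and 29.0 on mock and 48.0 and 72.8 on BRZ, so that arf2 on BRZ was near the level of Col on mock. The peroxidase AT2G22420 had log2 changes of 0.96 in Col and 1.07 in arf2.

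Regulatory proteins accounted for 8 named members, with log2 changes from 0.95 to 1.66 in Col and 0.97 to 1.64 in arf2. LEP (LEAFY PETIOLE), a transcription factor of the AP2/ERF family known for a role in leaf petiole development, read 58.4, 67.5 and 71.7 for Col on mock and 169, 175 and 152 on Col BRZ. In arf2 it read 64.8, 73.8 and 67.7 on mock and 214 and 164 on BRZ. The genotypes overlapped on either medium, and the fold was 2.51 in Col and 2.72 in arf2. AT1G44830, another AP2/ERF factor, read 88.3, 71.7 and 104 for Col on mock and 265, 301 and 258 for Col on BRZ, then 113, 116 and 71.7 on arf2 mock and 241 and 238 on arf2 BRZ. Here arf2 mock array 3 was below the other arrays of its group, at the level of Col mock array 2. FHL, a relative of FHY1 that helps carry phytochrome A into the nucleus, had log2 changes of 1.08 and 1.17. AT1G49210, a RING-finger protein, was low on mock, at 43.3, 23.1 and 29.5 in Col and 31.8, 36.0 and 32.0 in arf2. It read 113, 70.0 and 75.4 for Col on BRZ, and 90.1 and 83.5 for arf2 on BRZ. AT3G53250, of the SAUR family of small auxin-responsive proteins, read 70.5, 59.9 and 82.6 for Col on mock and 33.3, 30.8 and 43.8 on arf2 mock. Its BRZ levels were 141, 118 and 188 in Col and 115 and 106 in arf2, so that the gap between genotypes was wider on mock. AT2G34620, of the mitochondrial transcription termination factor family, read 43.3, 28.1 and 59.97 for Col on mock, 99.97, 115 and 113 on Col BRZ, 24.3, 30.0 and 24.0 on arf2 mock, and 42.9 and 60.6 on arf2 BRZ. The calmodulin-binding IQ-domain protein iqd33 had changes of 1.006 and 0.998. The TON1 recruiting motif gene TRM19, of a family linked to microtubule arrays, had changes of 0.95 and 1.24.

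Enzymes and membrane proteins made up another 8, with changes from 0.94 to 1.47 in Col and 0.81 to 1.53 in arf2. AT5G05880, a UDP-glycosyltransferase whose symbol in the supplied table is only its locus, read 103, 84.5 and 115 for Col on mock and 326, 230.3 and 285 on Col BRZ. In arf2 it read 104, 125 and 93.0 on mock and 230.1 and 258 on BRZ, and the genotypes overlapped on both media. GSTU25, a glutathione S-transferase of the tau class, read 24.1, 31.4 and 27.4 for Col on mock and 57.3, 58.3 and 57.9 on Col BRZ. Its levels in arf2 were 57.9, 64.3 and 82.6 on mock and 105 and 179.6 on BRZ. The arf2 mock arrays thus overlapped the Col BRZ arrays. AT2G41050, a PQ-loop membrane protein, was at 27.7, 23.0 and 33.8 for Col on mock and 83.8, 74.0 and 73.5 for Col on BRZ, then at 33.4, 34.8 and 26.5 on arf2 mock and 71.2 and 68.5 on arf2 BRZ. The acyltransferase AT5G01210 (changes of 1.10 and 1.18), the 2-oxoglutarate-dependent oxygenase AT3G46490 (1.07 and 1.53), the transporter-family gene AT1G33440, also known as NPF4.4 (0.94 and 0.85), the major facilitator AT2G16980 (1.04 and 0.81) and the tetraspanin TET10 (0.97 and 0.84) complete this group.

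Among the named members 3 belong to one plant family of unknown function, DUF241. AT3G51400 read 62.8, 46.0 and 50.2 for Col on mock and 175, 219 and 202 for Col on BRZ, then 59.3, 62.9 and 76.0 on arf2 mock and 217 and 216 on arf2 BRZ. AT1G76210 had changes of 0.99 in Col and 1.18 in arf2, from low mock levels of 15.2 to 21.2 in Col and 16.3 to 17.5 in arf2. AT2G17080, also low on mock, was the member nearest the threshold.

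For 11 named members no role is given here. AT5G38980 read 53.0, 76.1 and 65.9 for Col on mock and 179.7, 178 and 167 on Col BRZ. In arf2 it read 92.5, 104 and 89.2 on mock and 591 and 436 on BRZ, so its fold was 2.72 in Col and 5.34 in arf2. In the gene order of the TAIR10.1 table it lies next to BR6OX1, a gene of brassinosteroid synthesis for which no probe set is named. AT5G55620 went the other way between genotypes, at 74.3, 54.9 and 106 for Col on mock and 277, 237 and 295 on Col BRZ, against 36.1, 35.1 and 33.5 on arf2 mock and 77.0 and 107 on arf2 BRZ. AT5G57785 had the widest gap on mock among named members, with 425, 427 and 442 in Col against 80.3, 102 and 94.8 in arf2. On BRZ it read 897, 829.5 and 806 in Col and 604 and 562 in arf2. AT4G22160 was at 48.2, 55.2 and 55.9 for Col on mock, 127, 132 and 108 on Col BRZ, 71.1, 72.9 and 78.2 on arf2 mock, and 182 and 154 on arf2 BRZ, with every arf2 array above every Col array of the same medium. AT2G21560 showed no such order, at 59.8, 77.9 and 65.6 for Col on mock, 168, 141 and 150.1 on Col BRZ, 83.5, 73.1 and 65.8 on arf2 mock, and 187 and 145 on arf2 BRZ.

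**Figure D2:**
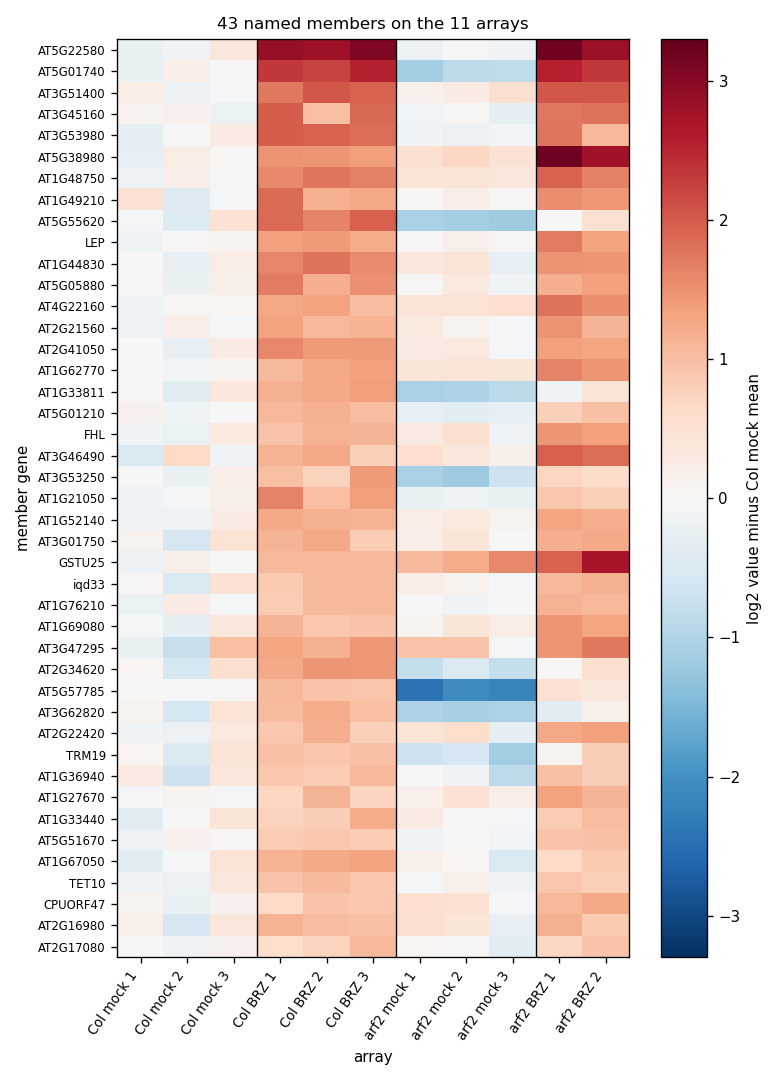
Log2 value minus the Col mock mean for the 43 named members (rows, ordered by the smaller of their changes in Col and arf2) on the 11 arrays (columns, black lines between groups). Red is above and blue below the Col mock mean. All BRZ columns of Col are red by construction, while on arf2 mock AT5G57785 is blue and GSTU25 is red.

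The other named members with a recognised domain included the DUF617 gene AT1G21050 (1.34 in Col and 1.05 in arf2), the ankyrin-repeat gene AT3G01750 (1.08 and 1.03), the DUF668 gene AT5G51670 (0.85 and 1.03) and AT1G69080, of the adenine nucleotide alpha hydrolase-like family (0.98 and 1.14). AT1G52140 (1.19 and 1.03), AT1G36940 (0.93 and 1.21) and AT1G27670 (0.85 and 0.94) are named without a role. AT3G47295 read 80.5, 56.4 and 190.0 for Col on mock, so Col mock array 3 lay close to the BRZ arrays at 234, 216 and 256. In arf2 it read 183, 184 and 91.7 on mock and 259 and 316 on BRZ.

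Unnamed members held some of the largest changes. Probe set 255177_at read 25.8, 18.7 and 25.4 for Col on mock and 128, 129.8 and 135 for Col on BRZ, then 21.6, 14.7 and 18.0 on arf2 mock and 119 and 103 on arf2 BRZ. Probe set 263890_at read 21.2, 23.0 and 31.4 for Col on mock and 143, 126 and 144 for Col on BRZ, then 20.2, 23.6 and 20.3 on arf2 mock and 138 and 142 on arf2 BRZ. Both ran from near the lower quartile of the arrays on mock, with similar levels in the genotypes.

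The threshold cut through a continuous range. The 5 named members nearest to it were AT2G17080, AT2G16980, CPUORF47 (a conserved upstream open reading frame at AT5G03190), TET10 and AT1G67050, with a smaller change from 0.80 to 0.85. AT2G17080 read 15.2, 13.5 and 16.4 for Col on mock and 22.5, 24.9 and 31.7 for Col on BRZ, then 15.7, 15.5 and 11.8 on arf2 mock and 24.1 and 28.8 on arf2 BRZ. Its mean log2 value was 3.90 on mock in Col and 3.83 in arf2, below the lower quartiles of all tested probe sets (4.53 in both groups), and this was the member that passed the filter through BRZ arrays only. The other 4 had mock levels from 34.2 (AT2G16980) to 232 (TET10). CPUORF47 read 61.5, 48.3 and 62.6 for Col on mock and 90.5, 109 and 105 for Col on BRZ, then 83.1, 80.5 and 55.2 on arf2 mock and 123 and 135 on arf2 BRZ. AT2G16980 read 56.0, 34.2 and 64.4 for Col on mock, 109.9, 100.02 and 97.6 on Col BRZ, 71.6, 65.2 and 41.0 on arf2 mock, and 113 and 90.6 on arf2 BRZ. Both had an arf2 mock array 3 well below the other 2 arrays of its group. AT1G67050 read 99.3, 123 and 179 for Col on mock, 288, 309 and 325 on Col BRZ, 145, 136 and 92.1 on arf2 mock, and 205 and 234 on arf2 BRZ. TET10 read 166, 159.9 and 232 for Col on mock, 352, 384 and 342 on Col BRZ, 177, 207 and 169 on arf2 mock, and 342 and 314 on arf2 BRZ. Just outside, 24 probe sets had no overlap of arrays and a smaller change between 0.75 and 0.80, of which 16 name 1 gene. The nearest were AT3G06840 (0.799 in Col and 0.956 in arf2) and AT1G50110 (0.881 and 0.796), and ULT1, a regulator of shoot and floral meristems, had 0.884 and 0.783. The demand that arrays not overlap removed no probe set that had passed both changes.

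On some mock arrays most members deviated from their group mean in the same direction. After subtraction of the group mean, 84 of 101 members were above it on Col mock array 3, and 33 on Col mock array 2. On arf2 mock 77 were above it on array 2 and 27 on array 3. The median deviation of the members was 0.16 and -0.11 on those Col arrays and 0.10 and -0.09 on those arf2 arrays, compared with 0.07, -0.01, 0.00 and -0.02 for all tested probe sets. On the BRZ arrays between 46 and 57 of 101 were above their group mean. How many of all tested probe sets lay above their group mean was not counted, so nothing is read from these counts alone. The array medians differed as well, from 5.93 to 6.20 on the log2 scale among Col mock arrays and from 6.09 to 6.22 among arf2 mock arrays, and the part of this in the size of the changes was not tested. The gap between the lowest BRZ and the highest mock array ran from 0.03 to 2.53 in Col (median 0.80) and from 0.32 to 3.23 in arf2 (median 0.88). When both normalizations and the removal of any 1 array were tried in turn, 57 of the 101 met the rule every time, 23 of them named. These included AT5G22580, AT5G01740, LEP, FHL, AT5G38980 and all of the 15 named members with the largest smaller change. Setting all array medians equal left 68 members, quantile normalization 78, and leaving out Col mock array 2 together with arf2 mock array 3 left 77 of the 101.

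**Figure D3:**
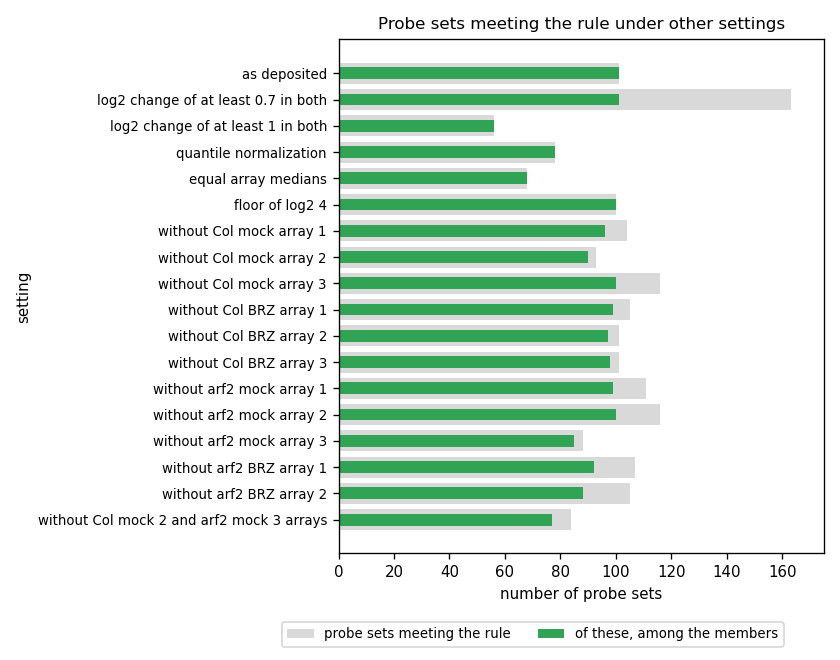
Number of probe sets that met the rule (grey bars) under each setting (vertical axis), and how many of these were among the 101 members (green bars). Equal array medians kept 68 members, and without arf2 mock array 3 the number kept was 85.

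Among the members the changes in the 2 genotypes were mostly alike in size. The rule demanded a rise in both genotypes, so this likeness is partly built in. It does not show how alike the BRZ response of the genotypes was outside the members. The difference of the changes, arf2 minus Col, had a median of -0.03 and ran from -1.04 to 1.70. It was smaller than 0.25 in size for 64 members and smaller than 0.5 for 87. The change was larger in arf2 by at least 0.5 for 6 members and larger in Col by at least 0.5 for 8. Among named members the largest excess in arf2 was that of AT5G57785 (0.97 in Col, 2.67 in arf2), followed by AT5G01740 (2.36 and 3.40) and AT5G38980 (1.44 and 2.42). The unnamed probe set 267457_at had 1.88 and 3.37. Larger changes in Col were led by the unnamed 262427_s_at (3.12 in Col, 2.08 in arf2). Since both changes entered the rule, their difference was not tested. For reference, limma called 99 of the 101 higher on BRZ in Col and 97 in arf2, where 6.2% and 2.92% of all tested probe sets were called higher. The rule used these contrasts, so nothing is read from those counts.

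**Figure D4:**
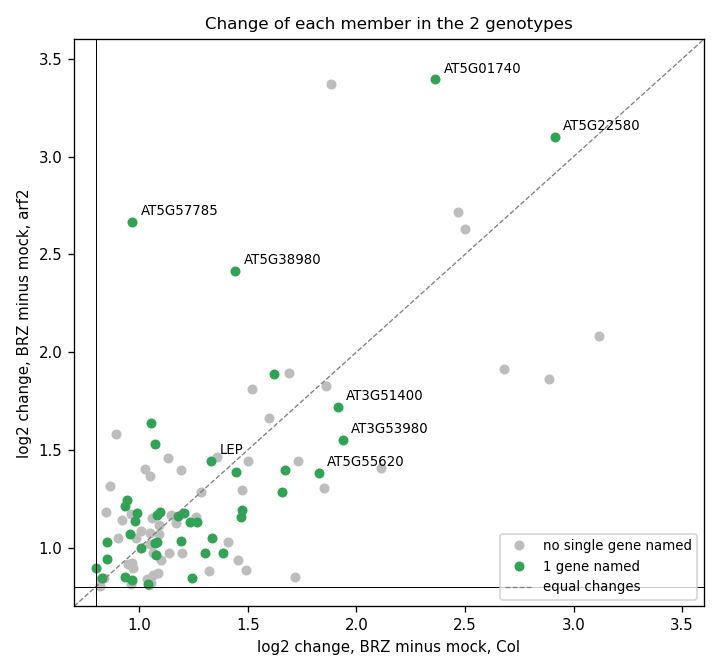
Log2 change on BRZ in Col (horizontal) and arf2 (vertical) for each of the 101 members. Green points name 1 gene, grey points name none or several, black lines mark the threshold of 0.8 and the dashed line equal changes. AT5G57785, AT5G01740 and AT5G38980 lie above the dashed line.

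The level of the members in arf2 against Col, averaged over both media, was not used by the rule and could be tested. This contrast is uncorrelated with the change in Col and has a correlation of 0.149 with the change in arf2 in the design, because of the unequal number of arrays. Limma called 28 of 101 members at an adjusted p under 0.05 over all tested probe sets, 10 higher and 18 lower in arf2. Among all tested probe sets 6.93% were called, 4.82% higher and 2.11% lower. This balance of directions moved with the scaling. The deposited values gave 1055 probe sets higher and 462 lower in arf2, quantile normalization 755 and 688, and equal array medians 533 and 803, where lower calls were the majority. Among the members quantile normalization gave 7 higher and 24 lower, and equal array medians 7 and 25. The share among the members was 27.7%, and 28.4% (23 of 81) for members with a mean log2 value above 6, where 10.9% of all such probe sets were called. Such a share was not particular to genes raised by BRZ. Of 69 probe sets that met the mirror image of the rule, lowered in both genotypes, 33 were called for genotype (47.8%), 29 higher and 4 lower in arf2. Unlike the members, these were not screened by gene name or for the plastid. The median genotype difference of the members was -0.01, next to 0.03 for all tested probe sets, with 49 members above 0 and 52 below. Without arf2 BRZ array 1 the count of called members fell to 15, and without array 2 it was 21.

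Of the 28 called members, 11 name 1 gene. AT5G57785 was lower in arf2 with a log2 difference of -1.38 ± 0.08 (SE, 5 arf2 arrays against 6 Col arrays, limma adjusted p 1.58e-06), made of -2.23 on mock and -0.53 on BRZ. AT5G55620 was lower by a difference of -1.34 ± 0.15 (adjusted p 0.000367), AT3G62820 by -1.12 ± 0.16 (adjusted p 0.00176) and AT1G33811 by -1.05 ± 0.14 (adjusted p 0.000914). On each medium all arf2 arrays of these genes lay below all Col arrays. AT2G34620 (-0.89 ± 0.17, adjusted p 0.00987) and the SAUR gene AT3G53250 (-0.69 ± 0.14, adjusted p 0.0109) were lower as well. These last calls were each lost without 1 arf2 BRZ array, AT2G34620 without array 1 (adjusted p 0.0674) and AT3G53250 without array 2 (adjusted p 0.061). AT5G01740 had a mean difference of -0.42 ± 0.10 (adjusted p 0.0294), with -0.94 on mock and 0.09 on BRZ. It did not pass when 1 of 6 arrays was left out: Col BRZ array 1 (adjusted p 0.0612) or 3 (0.0841), arf2 mock array 1 (0.0763) or 2 (0.0507), or arf2 BRZ array 1 (0.0612) or 2 (0.146). Nor did it pass with the replicate number as a block (0.0708).

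In the other direction, GSTU25 was higher in arf2 by 1.27 ± 0.14 (adjusted p 0.000289), with 1.30 on mock and 1.25 on BRZ. AT5G38980 was higher by 1.05 ± 0.11 (adjusted p 0.000197), with 0.56 on mock and 1.54 on BRZ. Smaller differences were called for AT4G22160 (0.47 ± 0.08, adjusted p 0.00581) and the pectin methylesterase inhibitor AT1G62770 (0.36 ± 0.07, adjusted p 0.0128). AT1G62770 did not pass once array medians were set equal (adjusted p 0.0733) or arf2 BRZ array 1 was left out (0.0807). The inhibitors AT1G62770 and AT3G62820 were thus called in opposite directions between genotypes while both were higher on BRZ. The largest difference of any member was that of the unnamed probe set 250475_at, at 87.8, 47.8 and 110.4 for Col on mock and 489.9, 494 and 503 on Col BRZ, against 449.7, 435 and 389.8 on arf2 mock and 1682 and 1512 on arf2 BRZ (2.07 ± 0.17, adjusted p 4.1e-05). The largest in the other direction was that of 251017_at, at 442, 332 and 476 for Col on mock and 882, 861 and 890.5 on Col BRZ, against 128, 149 and 142 on arf2 mock and 246 and 372 on arf2 BRZ (-1.55 ± 0.12, adjusted p 2.4e-05). These probe sets were singled out after their values were seen. Across members, 25 had the arrays of the genotypes apart in the same direction on both media, and 20 of these were among the 28. The share of all tested probe sets with such a separation was not counted, so nothing is read from these 2 numbers. The 25S ribosomal RNA control, which differed between genotypes on each medium, read 173 to 263 on arf2 mock, 59.7 to 95.9 for Col on mock, 33.6 and 63.9 on arf2 BRZ and 85.3 to 131 for Col on BRZ, then its part in these differences was not tested.

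**Figure D5:**
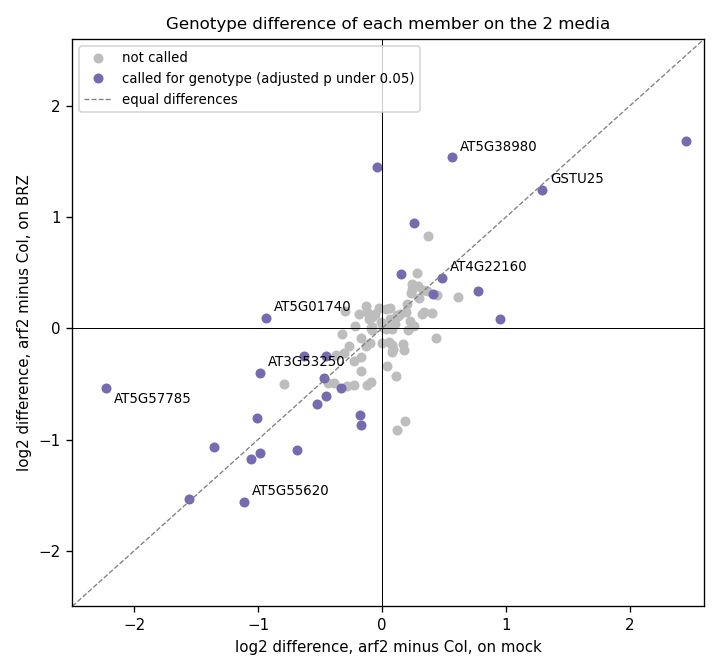
Log2 difference between arf2 and Col on mock (horizontal) and on BRZ (vertical) for each of the 101 members. Purple points are the 28 called for the mean of both differences (limma adjusted p under 0.05), grey points the others, and the dashed line marks equal differences. GSTU25 lies near the dashed line at 1.30 and 1.25, whereas AT5G57785 lies at -2.23 on mock and -0.53 on BRZ.

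LEP, FHL, AT1G44830, AT5G22580 and iqd33 were not called for genotype. Their differences were 0.12 ± 0.09 (adjusted p 0.531), 0.28 ± 0.13 (0.259), -0.01 ± 0.14 (0.98), -0.01 ± 0.12 (0.973) and 0.11 ± 0.15 (0.766). The other named members with an adjusted p under 0.1 were AT5G01210 (-0.27 ± 0.07, adjusted p 0.0532), TRM19 (-0.65 ± 0.18, 0.0536), AT1G27670 (0.33 ± 0.10, 0.0691), AT3G46490 (0.60 ± 0.18, 0.0742), AT1G21050 (-0.36 ± 0.11, 0.0808) and AT1G48750 (0.27 ± 0.08, 0.0857).

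Genes next to the named members in the TAIR10.1 gene order gave a measure that the rule did not use. Of these neighbours 44 were named alone by a probe set that passed the filter and was tested, beside 31 of the members, and none of the 44 was itself a member. In Col 4 of 44 were called higher on BRZ and 0 lower, with a background of 6.2% higher and 2.74% lower. In arf2 3 of 44 were called higher and 0 lower, with a background of 2.92% and 2.89%. The median neighbour changed by 0.12 in Col and 0.10 in arf2. AT5G57780 (P1R1 in the gene table), next to AT5G57785, read 303, 315 and 269.7 for Col on mock and 479.9, 437 and 435 for Col on BRZ, then 136, 168 and 136 on arf2 mock and 483 and 412 on arf2 BRZ. Its change was 0.61 ± 0.11 in Col (adjusted p 0.00679) and 1.61 ± 0.13 in arf2 (adjusted p 2.97e-05), and like its neighbour it was lower in arf2 on mock. AT2G17070, next to AT2G17080, changed by 0.81 ± 0.15 in arf2 (adjusted p 0.00865) and by 0.22 ± 0.14 in Col (adjusted p 0.32). Its levels were low, at 15.3, 17.3 and 17.7 on arf2 mock and 26.4 and 32.7 on arf2 BRZ. AT1G62760, next to AT1G62770, changed by 0.80 ± 0.18 in Col (adjusted p 0.0186) and by 0.48 ± 0.20 in arf2 (adjusted p 0.237). The remaining calls were in a single genotype. AT5G03180 changed by 0.78 ± 0.17 in Col (adjusted p 0.0178) and AT5G01200, at low levels, by 0.42 ± 0.12 in Col (adjusted p 0.0479). TRM22 changed by 0.79 ± 0.20 in arf2 (adjusted p 0.0434).

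Genes with the same symbol stem are given as a description without a test. They were taken by symbol alone, so some, such as TRM82, may not belong to the family of the member. Of 15 tested IQD genes 1, iqd33, was a member, and the other changes in Col ran from -0.20 to 0.28. For the 15 tested genes with a TRM symbol, of which TRM19 was the member, the others ran from -0.36 to 0.58. Of 15 tested tetraspanins, TET10 included, the others had changes in Col from -0.42 to 0.29, and of 11 tested tau glutathione S-transferases, GSTU25 included, the others had changes from -0.87 to 0.52. In arf2 the others with these symbol stems ran from -1.11 to 0.71, -0.34 to 0.79, -0.38 to 0.41 and -0.53 to 0.28.

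Of the brassinosteroid pathway itself, 2 of 26 listed signalling genes and 0 of 12 listed genes of synthesis and inactivation were measured by a probe set that names them. BRL1, a receptor related to BRI1, lay between 19.2 and 25.8 on the 11 arrays and changed by -0.13 ± 0.10 in Col (adjusted p 0.421) and 0.03 ± 0.11 in arf2 (adjusted p 0.915). BIM1, a transcription factor that partners BES1, lay between 357 and 477 and changed by -0.09 ± 0.09 in Col (adjusted p 0.536) and 0.18 ± 0.10 in arf2 (adjusted p 0.41). Neither passed the test in either genotype, beside a background of 6.2% higher and 2.74% lower in Col and 2.92% and 2.89% in arf2. None of 14 auxin response factors was named, ARF2 among them, so its own level was not analysed here. Of 16 light-signalling genes 1 was named. HYH, a bZIP factor related to HY5, changed by 0.15 ± 0.18 in Col (adjusted p 0.592) and 0.15 ± 0.20 in arf2 (adjusted p 0.777). Averaged over both media, HYH was lower in arf2 by a difference of -0.65 ± 0.13 (limma adjusted p 0.0134), at levels of 17.7 to 38.9. BRL1 and BIM1 were not called for genotype (adjusted p 0.931 and 0.205).

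Few markers of the tissue were named by a probe set. PORB, a protochlorophyllide reductase abundant in etiolated tissue, read 2060 to 4406 over the arrays and was lower in arf2 by a difference of -0.64 ± 0.11 (adjusted p 0.00629). The root hair genes EXPA7 and EXPA18 read 16.6 to 37.0, near the lower quartile, and neither passed the test for BRZ in either genotype. None of the 5 light-grown leaf, 5 xylem, 3 epidermis and 6 seed storage markers was named by a probe set. PORA was not named either, so the level of PORB alone does not check that the seedlings grew in darkness.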

How the data were processed

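Each probe set has 1 deposited intensity per array, on a linear scale, which the authors estimated with the gcRMA package after quality control with simpleaffy, per the series' design text. No version or genome build is given in the sources used here. For arf2 on BRZ the design text says that only 2 arrays passed that control. The log2 of each deposited intensity was taken. Of 22810 probe sets, 64 were controls, and 21886 passed a log2 value above 4 on at least 2 arrays. All 11 arrays entered 1 linear model in limma 3.58.1 (R 4.3.3) with 1 mean per group and moderated variances, which gave two-sided p-values adjusted by the Benjamini-Hochberg method over all 21886. A call is an adjusted p under 0.05, and SE is from that model. The number of arrays limits the precision. The genotype contrast is the mean of arf2 minus Col on mock and on BRZ. The procedure was tested on simulated data. Figures were drawn with matplotlib 3.10.9 (Python 3.11.15).

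Members and lists were chosen with earlier results of these data known. Any member with 1 gene may be named, and each array's value is given for the 15 with the largest smaller change, the 5 nearest the threshold and those called for genotype. Role groups, neighbours and relatives were chosen after the members had been seen. Roles of genes named by locus only come from general knowledge and not from the supplied annotation. Gene symbols come from the platform annotation (1 gene for 13513 probe sets, several for 503, none for 8730), matched to the TAIR10.1 gene table, where all 43 named members matched. Its coordinates were used only to order the genes along each chromosome, from which the neighbours were taken. A planned search of promoter motifs was not run. Alternatives were no filter, a filter at 6, quantile normalization, equal array medians, trend and robust variances, array weights, a replicate block, a floor at 4, media weighted by precision, and arrays left out.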

Additional observations from a re-analysis of the deposited data

Results flagged for a closer look

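In 2 members the genotypes were apart in opposite directions on the 2 media, every arf2 array above every Col array on one medium and below on the other. Neither names a gene. How often such a reversal occurs among all tested probe sets was not counted. Probe set 246550_at was higher in arf2 on mock by 0.43 on the log2 scale and lower on BRZ, with a difference of -0.08, so the change on BRZ was smaller in arf2 (-0.52). Probe set 252184_at was lower in arf2 on mock (-0.29) and higher on BRZ (0.16), and its change was larger in arf2 by 0.45. The difference was not tested, since both changes entered the rule.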

How the results depend on the processing

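A threshold of 0.7 gave 163 members and one of 1 gave 56. Without 1 array the rule gave 88 to 116 members. Beside the 28 members called for genotype, 15 to 37 were called without 1 array. The count over all probe sets was 1517, with 975 under the replicate block and 753 to 2134 without 1 array (753 without arf2 BRZ array 1, 769 without arf2 BRZ array 2, 895 without Col BRZ array 3 and 1001 without arf2 mock array 1), and the cause was not tested. The replicate number as a block called 23 members, all among the 28. Arrays of the same number in different groups correlated at -0.586 to 0.136 after group means were subtracted (15 pairs), and those of different numbers at -0.444 to 0.60 (30 pairs), so the numbers were not taken to pair the arrays. A filter at 6 called 34 of the 95 members it kept, beside 14.6% of all probe sets. Equal array medians moved the median genotype difference of all probe sets to -0.07, called 32 members and kept 25 of the 28 calls, as did quantile normalization (31 called). AT1G48750 and CPUORF47 were each called under 3 alternatives. No named member changed sign in a call. The pathway counts were 0 under each alternative run, but only 2 pathway genes were measured, so these counts say little about the pathway. With an arf2 BRZ array left out, the spread of the lone array left was taken from the other groups.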
